A study of Mus musculus with 4 samples.

Results

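Immune cells of the neonatal mouse heart after sham surgery were compared between mice with both copies of the PD1 gene deleted and mice with 1 copy deleted. The comparison rests on 11783 cells, of 23961 in the whole series, taken by limits on barcode quality. Every barcode of the 2 sham libraries was kept that had at least 500 unique molecular identifiers (UMIs, each marking 1 captured transcript), at least 200 genes and at most 10% mitochondrial UMIs. The mitochondrial limit is itself a measure of expression. The group called Het_sham, with 5376 cells, is the C57BL/6 library of genotype PD1 Het, and KO_sham, with 6407 cells, is the C57BL/6 library of genotype PD1 KO. Both had the operation without infarction on postnatal day 2. Ventricles were collected, without atria, after a further 7 days. Live CD45+ cells were sorted and sequenced with 10x Genomics 3' chemistry. No library had both PD1 copies intact, so the comparison is of no copy against 1 copy. The other libraries, Het_MI and KO_MI, are the same genotypes after myocardial infarction and are used only as a side by side reference. Which part of Pdcd1 was deleted and how many animals were pooled are not given in the labels.

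PD1, encoded by Pdcd1, is an inhibitory receptor that activated T cells display. Its ligands PD-L1 (Cd274) and PD-L2 (Pdcd1lg2) sit on myeloid cells, B cells and tissue cells, and their binding dampens T cell receptor signalling. The young heart holds resident macrophages seeded before birth, together with blood monocytes, B cells and few T cells, and its macrophages have roles in clearance, vessel growth and regeneration.

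Each group is 1 library, so no difference below has a replicate check, none was tested, and every interval is a 95% interval that covers counting error only. The genotype cannot be told apart from any other difference between the 2 preparations. Kept cells had a median of 6559.5 UMIs in Het_sham and 7452 in KO_sham. Barcodes over the mitochondrial limit made up 30.4% of Het_sham and 17.4% of KO_sham, against 17.5% and 15.0% in Het_MI and KO_MI, and their gated makeup is given with the T cells. Both sham libraries hold cells of both sexes: cells with only the female transcript Xist numbered 1088 and 1597, cells with only Y-linked transcripts 1839 and 2395, and 348 and 643 droplets held both. The 2 sexes come from different animals of a pool, so a ratio that appears in each sex rests on at least 2 sets of animals within the same library. The infarcted libraries differ in this: Het_MI had 732 cells with only Xist and 2560 with only Y-linked transcripts, and KO_MI 6393 and 1, so in that pair genotype and sex are confounded unless Xist cells alone are compared. The sham libraries shared 7 barcodes. Cells were assigned to 16 lineages by fixed marker genes, and droplets with 2 lineages were set apart as mixed (708 and 702) and those with none as ungated (294 and 265). Levels are UMIs per 1000000 UMIs of a gate (CPM).

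Pdcd1 itself was scarce in both libraries. Over whole libraries it had 61 UMIs in Het_sham, or 1.28 CPM (0.982 to 1.65), and 73 in KO_sham, or 1.16 CPM (0.910 to 1.46), against 125 UMIs (2.17 CPM) in Het_MI and 434 (6.25 CPM) in KO_MI. The gene lies on the minus strand of chromosome 1 (GRCm38 chr1:94038305-94052553), and a 3' tag outside the deleted part would still be counted, so these UMIs do not check the genotype. In the T cell gate, 22 of 490 Het_sham cells (4.49%) and 10 of 203 KO_sham cells (4.93%) held a Pdcd1 UMI, while B cells, taken as background, showed 0.204% and 0.180%. The KO_sham T cells held 36 Pdcd1 UMIs, 15 of them in 1 cell. Among type 2 innate lymphoid cells, tissue lymphocytes that make type 2 cytokines, 1 of 10 cells in Het_sham and 7 of 25 in KO_sham had a Pdcd1 UMI. A Pdcd1 UMI was seen in 1 of 1514 Het_sham macrophages and 0 of 2605 in KO_sham, where 3 counts would be 0.115% of cells; this limits cells with a UMI, not cells that express the gene.

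Of the ligands, Cd274 was highest in non-classical monocytes, the patrolling blood monocytes, at 170 CPM in Het_sham and 142 CPM in KO_sham, with a UMI in 48.5% and 44.1% of those cells. The intervals of these 2 levels (157 to 185 and 130 to 156) did not overlap, but in cells thinned to 2000 UMIs the log2 ratio moved from −0.26 to −0.056. B cells held Cd274 at 35.5 and 28.2 CPM and macrophages at 6.13 and 7.31 CPM. Pdcd1lg2 was lower over the whole KO_sham library, with 177 UMIs (3.72 CPM) in Het_sham and 121 (1.92 CPM) in KO_sham. Its B cell level was 7.10 CPM against 2.25 CPM, from 39 and 14 UMIs.

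Macrophages, gated on complement C1q genes, Adgre1, Fcgr1 and Mertk, were the largest lineage and took a larger share in KO_sham. They made up 1514 cells or 28.2% (27.0 to 29.4) of Het_sham and 2605 cells or 40.7% (39.5 to 41.9) of KO_sham, a ratio of 1.44 (1.35 to 1.54). In the infarcted libraries macrophages made up 43.0% of Het_MI and 41.4% of KO_MI, a ratio of 0.962. Het_sham thus had the lowest macrophage share of the 4 libraries. T cells went the other way, at 9.11% of Het_sham and 3.17% of KO_sham, or 2.88-fold (2.44 to 3.40) higher in Het_sham. Leaving out droplets led by T cell markers that held a T cell precursor transcript, described below, put macrophages at 30.9% and 41.0%, a ratio of 1.33 (1.25 to 1.42). B cells were at 18.3% and 17.4%, non-classical monocytes at 12.7% and 10.9%, classical monocytes at 5.30% and 4.20%, and neutrophils at 4.26% and 4.21%. Conventional dendritic cells, which prime T cells, were 34 and 66 cells, or 0.632% and 1.03%. NK cells (32 and 44), basophils (30 and 39), fibroblasts (38 and 49) and endothelial cells (38 and 49) had ratios whose intervals included 1. The label of immune cells held for nearly all cells: endothelial and fibroblast gates were each under 1% of a library, and 1 and 3 droplets passed the cardiomyocyte gate.

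**Figure D1:**
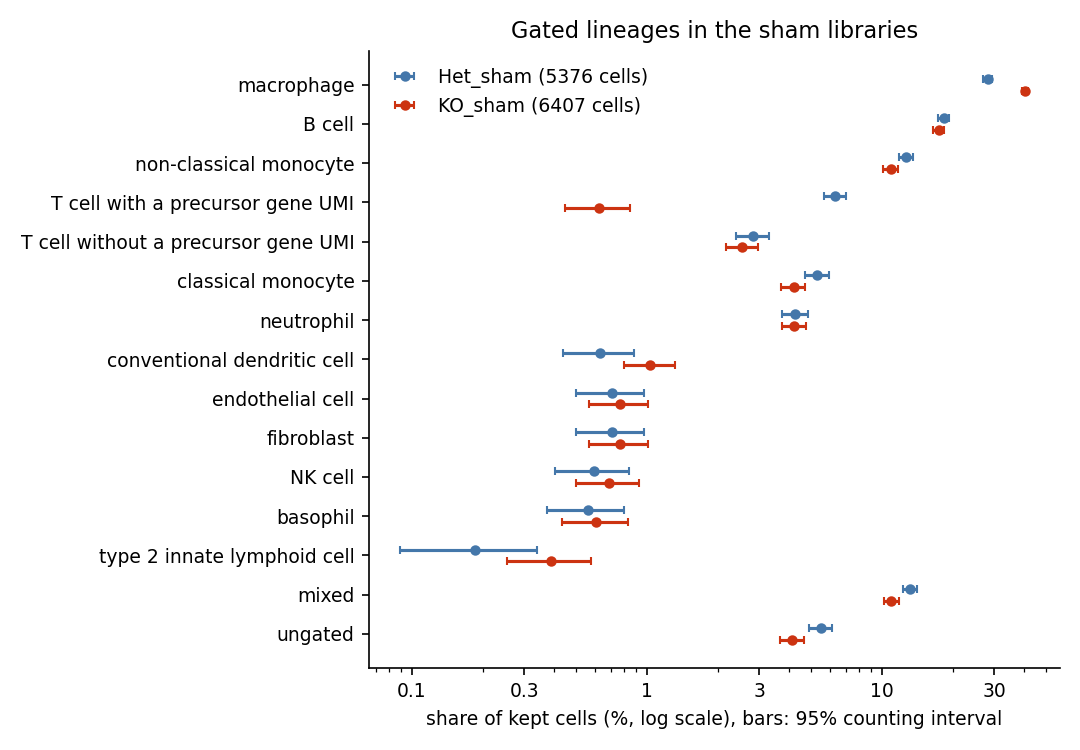
Share of kept cells in each gated lineage (log axis, percent) for Het_sham (5376 cells) and KO_sham (6407 cells), with 95% counting intervals. Macrophages stand at 28.2% and 40.7%, and T cells with a precursor gene UMI at 6.31% and 0.624%.

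Within macrophages, the inflammatory genes were higher in KO_sham. Of 17 measured members of an inflammatory list of cytokines, chemokines and NF-kB feedback genes, 16 were at least 1.5-fold higher and none lower, while 2.84% of all 11989 genes measured in macrophages were that much higher and 4.05% that much lower. The list's median log2 ratio was 0.99 and the median of all measured genes −0.07. Only Ccl2, a monocyte attractant, missed the fold, at 898 CPM in Het_sham and 1265 CPM in KO_sham.

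Several of these genes are classical targets of NF-kB, a factor that binds short GC-flanked sites, so their promoters are shown first. In the 250 bases before the gene start (RefSeq, GRCm38.p6), a 10-letter NF-kB motif (3 G, any 2 letters, 3 T, then 2 C, or its reverse complement) occurred in 7 of the 13 inflammatory-list genes with a promoter in the table (53.8%). Over all 27025 genes the share was 1.65%, and over the genes measured in macrophages 1.87%. A 9-letter spelling searched first, GGGNNTTCC on either strand, which lacks 1 of the T letters, occurred in 2 of the 13 (15.4%), against 5.61% of all genes, so the share depends on the spelling. The list was assembled from genes known for this response, and a match of letters is a description, not a bound site. Each sequence runs 5′ to 3′ toward the gene start on the gene's strand, with matches to the 10-letter motif on either strand in capitals. Cxcl1 (chr5:90890995-90891244, plus strand) and Cxcl2 (chr5:90903649-90903898, plus strand) are neighbouring genes for neutrophil attractants. Nfkbia (chr12:55492648-55492897, minus strand) and Tnfaip3 (chr10:19015411-19015660, minus strand) encode inhibitors that NF-kB switches on against itself.
Cxcl1: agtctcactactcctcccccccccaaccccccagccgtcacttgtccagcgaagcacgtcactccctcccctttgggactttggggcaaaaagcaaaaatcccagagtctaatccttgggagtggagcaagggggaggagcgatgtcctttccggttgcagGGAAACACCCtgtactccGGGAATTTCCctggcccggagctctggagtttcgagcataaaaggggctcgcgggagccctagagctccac
Cxcl2: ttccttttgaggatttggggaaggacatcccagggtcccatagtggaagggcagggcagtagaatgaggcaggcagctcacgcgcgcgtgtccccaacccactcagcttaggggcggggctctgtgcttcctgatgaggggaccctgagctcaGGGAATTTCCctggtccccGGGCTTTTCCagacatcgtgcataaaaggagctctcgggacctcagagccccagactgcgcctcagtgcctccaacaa
Nfkbia: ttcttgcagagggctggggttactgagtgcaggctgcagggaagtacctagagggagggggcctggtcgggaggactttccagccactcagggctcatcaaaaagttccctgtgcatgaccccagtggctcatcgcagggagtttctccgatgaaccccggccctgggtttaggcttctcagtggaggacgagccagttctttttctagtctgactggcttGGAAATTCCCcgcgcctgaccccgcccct
Tnfaip3: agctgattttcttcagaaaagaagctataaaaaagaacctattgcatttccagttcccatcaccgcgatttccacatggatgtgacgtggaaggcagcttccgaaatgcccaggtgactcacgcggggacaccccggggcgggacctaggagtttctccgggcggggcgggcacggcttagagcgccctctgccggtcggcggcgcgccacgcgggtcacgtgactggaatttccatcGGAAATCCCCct
In Cxcl1 the matches began 89 and 71 bases before the start, and in Cxcl2 97 and 78 bases before it.

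Cxcl2, a neutrophil attractant, had the highest level in the list. It was at 3801 CPM in Het_sham macrophages and 8777 CPM in KO_sham, a log2 ratio of 1.21 (1.20 to 1.22). Cxcl1, its neighbour, was at 190 CPM and 601 CPM, a log2 ratio of 1.66 (1.61 to 1.72). Cxcl3, another member of this family, was at 5.68 and 9.84 CPM. These differences were also differences in the share of expressing cells. After thinning each macrophage to 2000 UMIs, which left 1374 and 2540 cells and dropped 140 and 65, Cxcl1 was seen in 11.4% of Het_sham and 27.6% of KO_sham macrophages (18.3% and 41.9% unthinned). Thinned B cells, as background, showed 0.209% and 1.52%. Cxcl2 was seen in 56.6% and 81.6% of thinned macrophages, with 5.74% and 15.0% of B cells.

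Other chemokines were higher as well. Ccl4, a chemokine already counted in the inflammatory list, was at 1354 CPM in Het_sham and 3170 CPM in KO_sham (log2 ratio 1.23). Cxcl10, an interferon-inducible T cell attractant, was at 475 and 1123 CPM (1.24). Of 25 measured chemokines and chemokine receptors, 12 were at least 1.5-fold higher and none lower. By sex the count was 9 of 21 higher in Xist macrophages and 8 of 21 in Y-linked ones, with 0 lower in either. Pf4 at 4814 and 4621 CPM, Ccl12 at 518 and 476 CPM and Ccl24 at 99.3 and 99.1 CPM were close to level, so the difference did not extend to every abundant macrophage chemokine.

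Among cytokines, Tnf was at 360 CPM in Het_sham and 830 CPM in KO_sham, a log2 ratio of 1.20 (1.17 to 1.24), and was seen in 40.0% and 61.0% of thinned macrophages (B cells 3.13% and 5.02%). Il1a was at 19.0 and 61.6 CPM (1.70) and Il1b at 197 and 391 CPM (0.99). Il6 was rare, with 18 and 131 UMIs. Ptgs2, the inducible prostaglandin synthase, had the largest ratio of the genes named by rule in macrophages, at 18.0 and 58.9 CPM (1.71, 1.54 to 1.88). Inhibitors of the response were higher as well: Nfkbia was at 819 and 1495 CPM (0.87), Tnfaip3 at 86.4 and 167 CPM (0.95), and Il1rn, the natural antagonist of the interleukin-1 receptor, at 10.7 and 26.7 CPM. The calcineurin inhibitor Rcan1 (39.1 and 95.2 CPM), the costimulatory ligand Tnfsf9 (53.0 and 122 CPM) and the nuclear receptor Nr4a2 (75.5 and 155 CPM) completed the 10 highest genes.

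The difference in the list's sum was spread over the cells and was not carried by a few. Cxcl2 and Ccl4, the list's highest genes at 8777 and 3170 CPM in KO_sham, weigh most in that sum. The summed inflammatory list took a median of 41.3 UMIs per 10000 in a Het_sham macrophage and 135 in a KO_sham macrophage. The 25th percentile of KO_sham, 47.5, lay above the Het_sham median. The infarcted libraries had medians of 139 (Het_MI) and 113 (KO_MI), so of the 4 libraries Het_sham had the lowest level. By sex, medians in Xist macrophages were 53.7 in Het_sham, 189 in KO_sham, 105 in Het_MI and 117 in KO_MI, and in Y-linked macrophages 48.4, 112 and 159 in Het_sham, KO_sham and Het_MI. Het_sham was thus lowest in both sexes, while the place of KO_sham among the infarcted libraries depended on sex. Any ratio over Het_sham rests on that 1 library. The summed list was also higher in KO_sham classical monocytes (medians 16.5 and 28.8) and non-classical monocytes (48.5 and 63.1), but not in neutrophils (83.2 and 71.5).

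**Figure D2:**
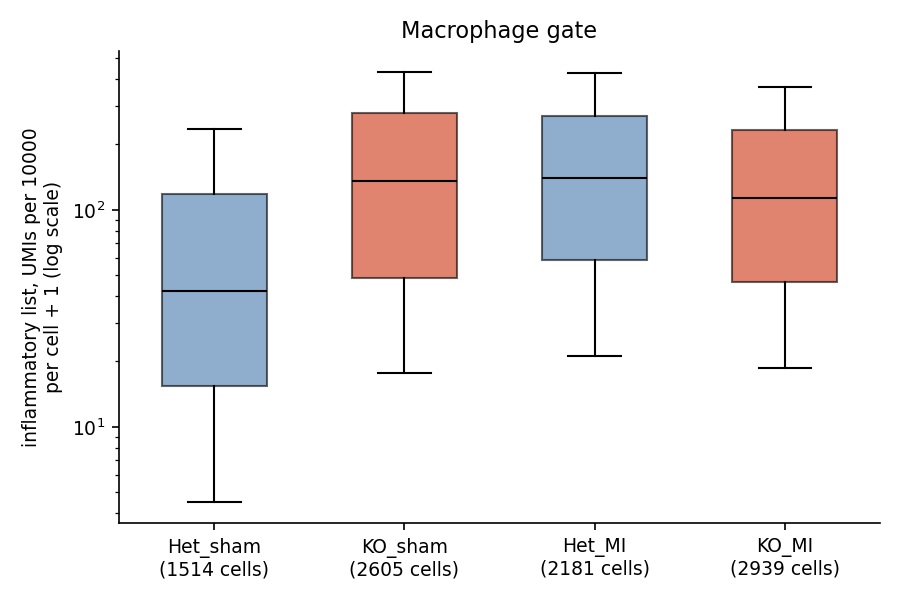
UMIs of the inflammatory list per 10000 UMIs of each macrophage, plus 1, on a log axis, in all 4 libraries; boxes span the quartiles with the median, and whiskers the 10th to 90th percentiles of cells. Het_sham has the lowest median (41.3), against 135 in KO_sham, 139 in Het_MI and 113 in KO_MI; sexes are pooled here, and KO_MI is almost all Xist cells.

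Cells of both sexes showed the difference, to unequal degrees. Among macrophages with only Xist (330 in Het_sham, 727 in KO_sham) 15 of 16 measured list members were at least 1.5-fold higher, with a median log2 ratio of 1.14 and 4.04% of all genes that much higher. Among macrophages with only Y-linked transcripts (584 and 1065) it was 15 of 17, with a median of 0.86 and 1.84% of all genes. Cxcl1 differed most between them: it was at 141 and 964 CPM in Xist cells, a log2 ratio of 2.78, and at 224 and 414 CPM in Y-linked cells, a ratio of 0.88. Il1a was alike at 1.73 and 1.77. The difference between the sexes was not tested.

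**Figure D3:**
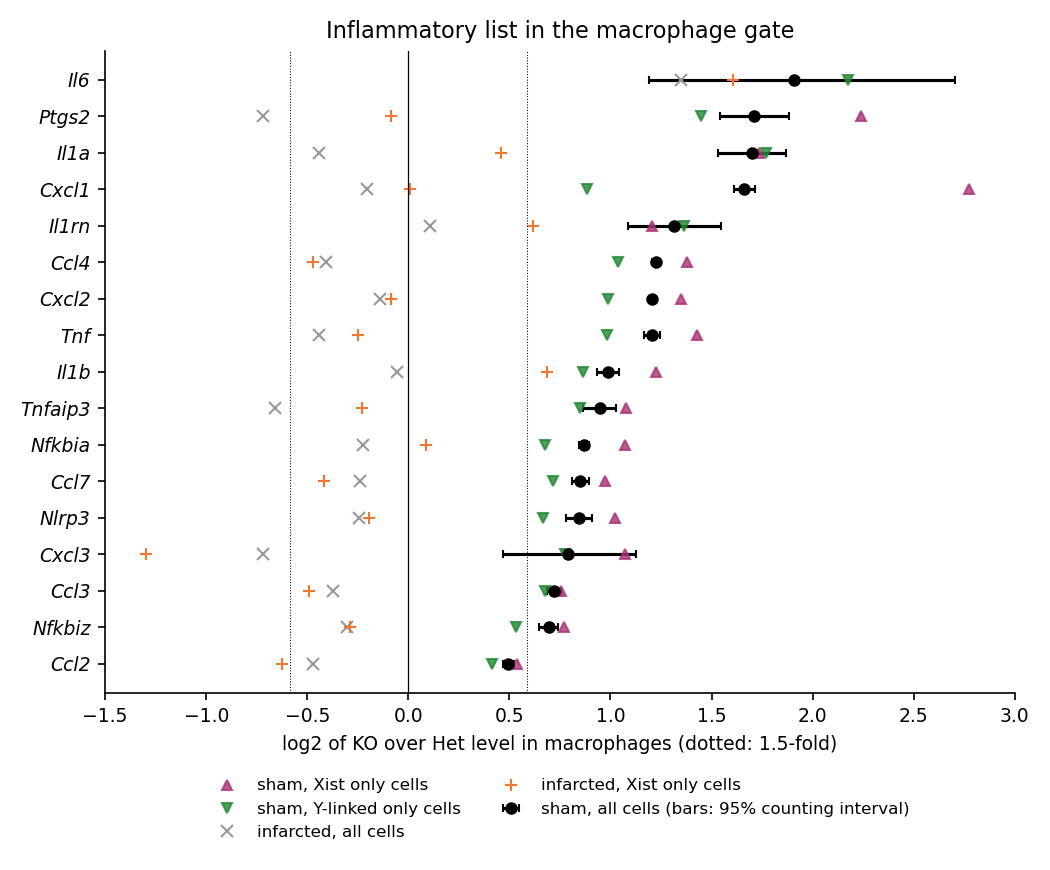
Log2 ratio of KO over Het level in macrophages for 17 inflammatory genes: all sham cells with 95% counting intervals (circles), sham cells with only Xist or only Y-linked UMIs (triangles), the infarcted pair (crosses), and the infarcted pair in Xist cells alone (plus signs). All sham circles lie at or above 0.49, and 16 lie right of the 1.5-fold line, whereas 15 of the infarcted crosses and 11 of 17 plus signs lie left of 0; KO_MI is almost all Xist cells and Het_MI mostly Y-linked.

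Immediate early genes, switched on within minutes of a stimulus and also by tissue dissociation, were partly higher. Of 21 members 8 were at least 1.5-fold higher and none lower, with a median log2 ratio of 0.43. Junb was at 1128 CPM in Het_sham and 1887 CPM in KO_sham, Egr1 at 394 and 612 CPM, and Dusp1 at 297 and 478 CPM. Jun, at 654 and 663 CPM, and Klf2, at 177 and 158 CPM, were not. By sex the count was 10 of 21 in Xist macrophages (median 0.55) and 2 of 21 in Y-linked ones (0.36). Heat shock genes, another sign of handling, had a median of 0.00 with 0 of 14 past the fold in either direction. The part of dissociation in the inflammatory difference was not tested.

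Growth factors gave 5 of 14 higher and none lower. Areg, an epidermal growth factor family ligand, was at 13.1 CPM in Het_sham and 43.2 CPM in KO_sham. Hbegf (41.0 and 82.1 CPM), Osm (41.3 and 71.8 CPM) and the stress cytokine Gdf15 (196 and 352 CPM) were higher too. Igf1, made by resident macrophages, was at 344 and 312 CPM, and Tgfb1 stood at 183 CPM in both. The resident macrophage list, with the scavenger receptors Mrc1 (1293 and 1314 CPM) and Stab1 among its genes, had 0 of 15 members past the fold and a median of −0.09. The lipid-associated list (Apoe at 14177 and 12857 CPM, Trem2 at 425 and 361 CPM) had 0 of 16 and a median of −0.05. Cell cycle (0 of 20), respiratory chain (0 of 19) and complement and efferocytosis genes (0 of 13) likewise had no member past the fold.

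Interferon genes did not follow the inflammatory list. Of 20 measured type I interferon genes, which cells use against viruses, 4 were at least 1.5-fold higher and 7 lower, with a median of −0.21. Isg15 (96.2 CPM in Het_sham, 189 CPM in KO_sham), Oasl1 (7.71 and 20.1 CPM), Ifih1 (29.3 and 48.8 CPM) and Ifit1 (6.87 and 10.7 CPM) were higher. Irf7 (23.9 and 14.9 CPM), Oas1a (20.4 and 10.9 CPM) and Rtp4 (44.9 and 24.4 CPM) were lower. Among Xist cells 10 of 18 were lower and among Y-linked cells 2 of 20, and TMM scaling left 4 lower in all cells. The interferon-gamma list had 3 of 19 higher and a median of −0.19, and the MHC class I list of antigen presentation to CD8 T cells 0 of 15 and a median of −0.17. In the infarcted pair these 3 lists had medians of 0.76, 0.84 and 0.67. MHC class II genes were higher in 6 of 10 (Cd74 at 227 and 420 CPM, H2-Aa at 45.6 and 118 CPM), but B cells hold Cd74 at 7790 and 6951 CPM and summed B cell markers in the macrophage gate were 78.0 and 108 CPM; their part was not tested.

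Only 3 genes met the rule for lower macrophage genes: Satb1 (50.1 CPM in Het_sham and 20.3 CPM in KO_sham), Rhoh (50.2 and 28.6 CPM) and Gpr183 (104 and 64.6 CPM). Satb1 and Rhoh were highest in the T cell gate, and the summed T cell markers in the macrophage gate were 106 and 44.2 CPM. The thymocyte list in macrophages had 7 of 11 lower and a median of −1.26. The part of T cell RNA in these values was not tested.

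Classical monocytes, the Ly6c2-positive cells recruited in injury, had 15 of 16 inflammatory genes at least 1.5-fold higher and a median log2 ratio of 1.22, where 3.22% of all 6647 measured genes were that much higher and 4.48% lower. Cxcl2 was at 552 CPM in 285 Het_sham cells and 1775 CPM in 269 KO_sham cells (log2 ratio 1.69), and Tnf at 57.7 and 200 CPM (1.79). Il1b was at 961 and 1558 CPM (0.70), whereas Ccl3 was level at 247 and 233 CPM. Cxcl1 was at 15.9 and 110 CPM, with 81.6% of its Het_sham UMIs in 1 cell. With few cells of 1 sex the count was 9 (Xist) and 7 (Y-linked). The minimum of UMIs was applied again within each sex, so fewer list members could be measured. The lower counts therefore do not show that genes lost the difference. Cxcl1 and Tnf, the list members named by rule here, were higher in each sex. The Tnf log2 ratio was 1.79 in Xist and 1.56 in Y-linked cells. For Cxcl1 it was 5.03 and 3.11, from 3 Het_sham UMIs in each sex. Summed macrophage markers there were 758 and 853 CPM. The inducible heat shock genes Hspa1b (214 and 97.8 CPM) and Hspa1a (357 and 185 CPM), near-identical copies whose reads may be divided between them, were lower, as were Klf2 (140 and 70.8 CPM) and Jun (321 and 184 CPM). The granule genes Mpo, Elane and Ctsg looked lower, but 91.0% to 100% of their Het_sham UMIs came from 1 cell each.

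Non-classical monocytes had 12 of 16 inflammatory genes higher and a median of 0.83, against 3.35% of all 7493 genes higher and 2.55% lower. The strongest were monocyte attractants: Ccl7 at 5.59 CPM in Het_sham and 56.0 CPM in KO_sham (log2 ratio 3.32) and Ccl2 at 18.8 and 120 CPM (2.68). Il1b, abundant in these cells, was at 2236 and 3098 CPM (0.47). Macrophage RNA moved with this: the 6 macrophage markers, none at 0, summed to 408 and 812 CPM, and the resident macrophage list had 6 of 12 members higher, with Mrc1 at 53.3 and 137 CPM. The part of that RNA in the chemokine values was not tested. Hspa1b (460 and 215 CPM) and Hspa1a (610 and 317 CPM) were lower here too.

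In neutrophils several of the same genes were lower and some higher. Their activation list had 0 of 13 higher and 4 lower, with a median of −0.15, against 4.59% of all 2744 genes higher and 5.76% lower. Il1b was at 3992 CPM in 229 Het_sham cells and 2611 CPM in 270 KO_sham cells (log2 ratio −0.61) and Cxcl2 at 4685 and 2842 CPM (−0.72). Ccrl2, a chemerin receptor, was at 689 and 212 CPM (−1.70) and Ptgs2 at 369 and 143 CPM (−1.37). Neutrophils with only Xist UMIs were 16 and 12, with 5 and 5 Ccrl2 UMIs, too few to read a direction; among 43 and 67 neutrophils with only Y-linked UMIs the Ccrl2 ratio was −1.78 (−2.34 to −1.24). The alarmin S100a8 was at 44033 and 51330 CPM (0.22). F5, coagulation factor V, was at 72.6 and 163 CPM (1.17). Cxcl10 and Cxcl1 were higher in KO_sham neutrophils, at 8.06 and 104 CPM (5 and 77 UMIs) and 9.68 and 70.3 CPM (6 and 52 UMIs). Tnf (100 and 114 CPM) and Ccl4 (703 and 797 CPM) were nearer level. Summed macrophage markers in the neutrophil gate were 152 and 222 CPM, and their part was not tested.

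**Figure D4:**
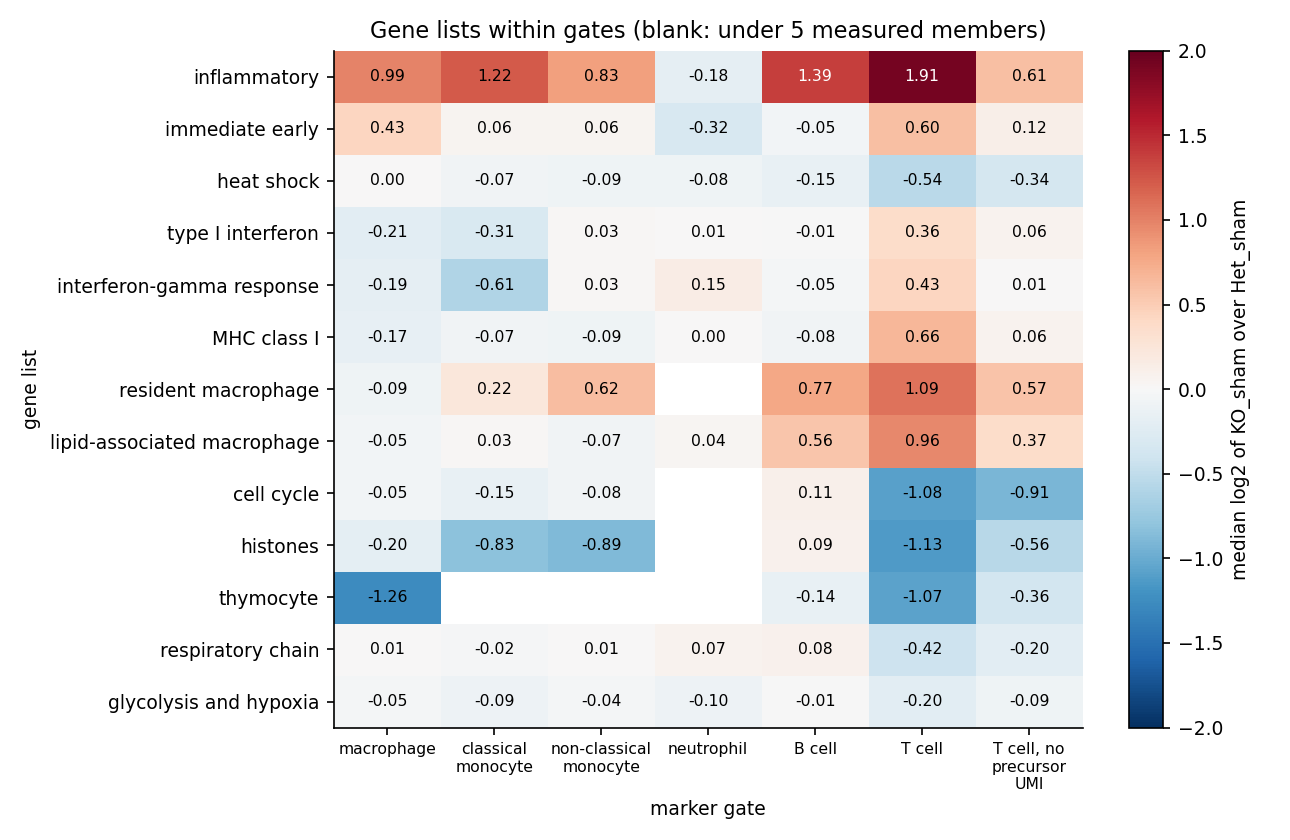
Median log2 ratio of KO_sham over Het_sham for 13 gene lists (rows) in 7 gates (columns); blank cells had under 5 measured members. The inflammatory row is positive in macrophages (0.99) and monocytes (1.22 and 0.83) and −0.18 in neutrophils; its B and T cell values are of low levels.

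In B cells 2.86% of 8821 genes were at least 1.5-fold higher and 3.07% lower. These shares were near those of macrophages (2.84% and 4.05%) and non-classical monocytes (3.35% and 2.55%). The maturation list (Ms4a1, Ighd, class II genes) had 0 of 14 higher and 1 lower, and cell cycle genes 0 of 20 in either direction. The 2 genes named by rule were Hspa1b (158 CPM in Het_sham and 81.4 CPM in KO_sham) and Hspa1a (212 and 118 CPM). The inflammatory list had 9 of 12 members higher in B cells, at levels far under those of macrophages: Cxcl2 was at 61.0 and 242 CPM there. Summed macrophage markers in the B cell gate were 57.9 and 104 CPM and T cell markers 102 and 15.0 CPM, and their part was not tested.

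Most of the difference in T cell share lay in cells with precursor transcripts. T cells with at least 1 UMI of Rag1, Rag2, Ptcra, Dntt or Arpp21, genes of antigen receptor rearrangement and early lymphocyte development, some of which also serve B cell precursors, were 339 cells or 6.31% of Het_sham and 40 cells or 0.624% of KO_sham, 10.1-fold (7.26 to 14.4) more in Het_sham. T cells without such a UMI were 151 and 163 cells, or 2.81% and 2.54%, a ratio of 0.906 (0.721 to 1.14). In the infarcted libraries the precursor share was 1.62% in Het_MI and 2.84% in KO_MI, a ratio of 1.76. Of the 4 libraries Het_sham thus had the highest share and KO_sham the lowest.

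Precursor UMIs were not restricted to T cells. In Het_sham 24.5% of macrophages, 16.2% of B cells and 9.17% of neutrophils held at least 1, against 3.99%, 8.09% and 0.370% in KO_sham, and 69.2% and 19.7% of T cells did. A single such UMI therefore does not mark a precursor cell in Het_sham. In Het_MI and KO_MI, 7.34% and 9.08% of macrophages, 9.15% and 10.6% of B cells and 0.490% and 1.13% of neutrophils held at least 1. Het_sham was thus the highest of the 4 libraries in each of these gates. With a minimum of 3 UMIs, chosen after seeing the data, the background fell to 8.92% of macrophages and 0 of 229 neutrophils in Het_sham, and T cells at the minimum were 283 and 34, still 9.92-fold (6.94 to 14.6) more in Het_sham. T cells below it were then 207 and 169, or 3.85% and 2.64%, a ratio of 0.685 (0.556 to 0.843), so whether the remaining T cells differed in share depended on this minimum. In B cells at least 1 UMI was held by 159 and 90 cells, 2.11-fold (1.62 to 2.76) more in Het_sham by share, but at least 3 UMIs by 27 and 34, or 0.502% and 0.531%.

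Levels within the T cells with a precursor UMI rest on 40 cells in KO_sham. Rag1 was at 331 CPM in Het_sham and 409 CPM in KO_sham, Dntt at 285 and 358 CPM, Cd8a at 236 and 263 CPM and the proliferation marker Mki67 at 506 and 686 CPM, a gene detected in 58.1% and 47.5% of them. Ptcra was lower in KO_sham, at 72.7 and 43.5 CPM, and Ccl5 higher, at 52.2 and 279 CPM, the latter from 14 and 2 cells. Barcodes over the mitochondrial limit held many more: 837 of 2296 (36.5%) in Het_sham passed the T cell gate, 673 with a precursor UMI, against 40 of 1302 (3.07%) and 15 in KO_sham. In Het_MI 50 of 1036 (4.83%) passed it and in KO_MI 46 of 1214 (3.79%). Mixed droplets of macrophage and T cell numbered 288 and 156, of which 226 and 45 held a precursor UMI.

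**Figure D5:**
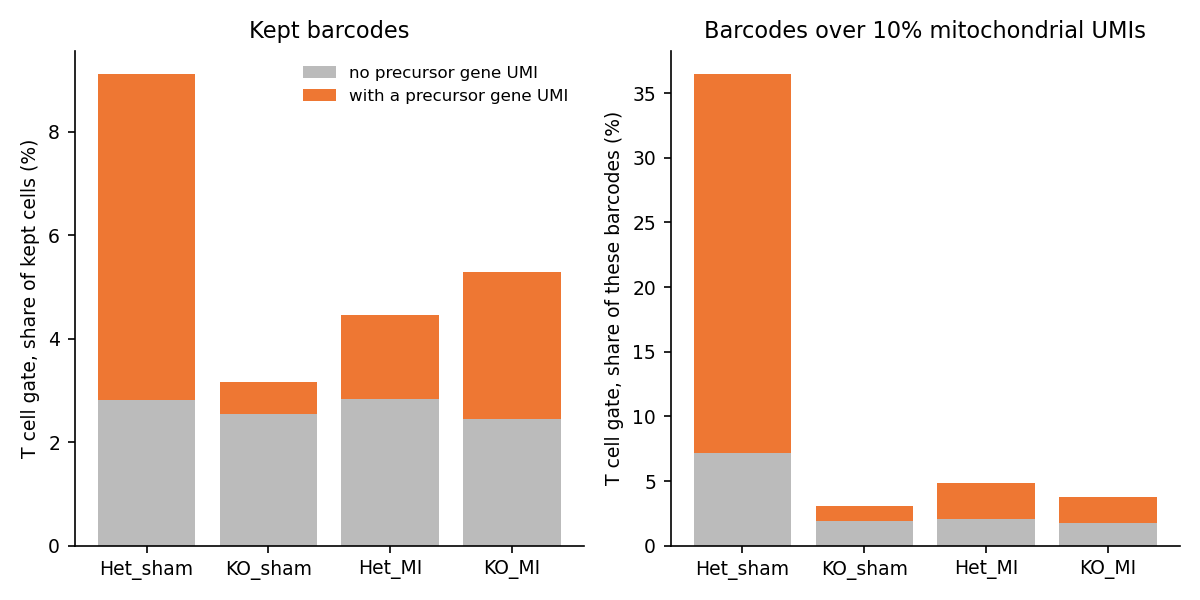
T cell gate as a share of kept barcodes (left) and of barcodes over 10% mitochondrial UMIs (right) in the 4 libraries, divided by whether a precursor gene UMI was present. The part with a precursor UMI is 6.31% of kept Het_sham cells and 0.624% of kept KO_sham cells, while the part without is 2.81% and 2.54%.

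With those cells in the gate, T cells differed in 13.1% of 8076 genes upward and 24.4% downward. Cell cycle genes were lower in 19 of 20 and the thymocyte list in 8 of 12, with medians of −1.08 and −1.07, while Ccl5, a chemokine of memory and effector cells, was at 289 CPM in Het_sham and 1362 CPM in KO_sham. The pre-T receptor gene Ptcra was at 56.5 and 11.6 CPM and Il2ra, the interleukin-2 receptor alpha chain, at 88.7 and 21.8 CPM. Scaling moved the centre of this gate by 0.14 on the log2 scale.

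In T cells without a precursor UMI, 5.67% of 4675 genes were higher and 9.99% lower. Cell cycle genes were lower, 15 of 18 with a median of −0.91, Birc5 being at 197 CPM in Het_sham and 61.4 CPM in KO_sham. Cd24a, at 319 CPM in Het_sham T cells with a precursor UMI, also differed here. It was at 44.1 and 18.6 CPM, with a UMI in 21.2% and 6.13% of cells, whereas Ccr7 was at 165 and 163 CPM. The makeup of the 2 sides, and its part in the cell cycle values, was not tested. Among cells with only Y-linked UMIs (61 and 62) Birc5 had 137 and 40 UMIs, and among those with only Xist (28 and 52) 5 and 11 UMIs. In the Xist cells 1 cell cycle gene was past the fold, but fewer could meet the minimum of UMIs there. Ctla4, another inhibitory receptor, was at 46.7 and 112 CPM (log2 ratio 1.26). Of 10 effector genes 2 were higher and 3 lower: Ifng was at 68.7 and 23.3 CPM (−1.56) and Ccl5 at 1113 and 1756 CPM (0.66). Xcl1, a chemokine for dendritic cells, was at 82.3 and 12.1 CPM and Cd14, a monocyte gene, at 7.64 and 109 CPM; in Xist cells both had at most 4 UMIs in a library. These are 151 and 163 cells, and summed macrophage markers among them were 169 and 221 CPM.

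Across whole libraries, 378 genes (2.69% of 14039) were at least 1.5-fold higher and 1031 (7.34%) lower in KO_sham. Giving each gate the same weight in both libraries left 2.48% higher and 5.21% lower. Of the genes past the fold before weighting, 61.9% of the higher and 61.1% of the lower stayed past it. Of the lower genes 39.5% had their highest level in the T cell gate, as did 12.1% of all measured genes, and of the higher ones 23.5% had it in the macrophage gate, against 8.35% of all. After weighting, Cxcl1 (log2 ratio 1.65), Cxcl10 (1.32), Rcan1 (1.22), Cxcl2 (1.21) and Tnf (1.20) led the higher genes. Arpp21 (−2.50), Rag1 (−1.98), Myb (−1.52), Tcf7 (−1.27) and Lat (−1.19), genes of early T cells and T cell signalling, led the lower. Rag1 was at 79.5 CPM in Het_sham and 11.7 CPM in KO_sham before weighting. The T cell markers were higher in Het_sham in gates that should lack them: 113 against 13.3 CPM in non-classical monocytes and 221 against 56.8 CPM in neutrophils. Weighting by gate does not remove such RNA. The T cell gate was also weighted as a whole. Of its cells, 339 of 490 in Het_sham and 40 of 203 in KO_sham held a precursor UMI, a mix that weighting left unlike. Among T cells with such a UMI Rag1 was at 331 CPM in Het_sham and 409 CPM in KO_sham.

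The infarcted pair, which shares no library with the sham pair, gave other values for the same macrophage genes. The inflammatory list had 1 of 17 higher and 3 lower in KO_MI, with a median log2 ratio of −0.31. As KO_MI is almost all Xist cells and Het_MI mostly Y-linked, Xist macrophages (339 and 2823) were also compared: 3 of the 17 were higher and 2 lower, with a median of −0.19, where 7.53% of all genes were higher and 7.85% lower. Cxcl1 had a log2 ratio of 0.01 there and Tnf −0.25, and the per-cell medians of the summed list were 105 and 117, the other way. In the same Xist cells the interferon-gamma, type I interferon and MHC class I lists had medians of 0.86, 0.65 and 0.69. Cxcl1 was at 583 and 506 CPM and Tnf at 870 and 639 CPM in Het_MI and KO_MI. Of the 333 genes that were higher in KO_sham macrophages and measured in both pairs, 49 (14.7%) were also higher in KO_MI, which is 15.3% of the 321 higher there, where 2.70% of all genes were. Another 28 of the 333 were at least 1.5-fold lower in KO_MI, where 2.78% of all genes were. The difference between the pairs was not tested.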

How the data were processed

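The deposited UMI counts per gene and barcode, 1 matrix per library, cover 32285 genes. The authors' matrices carry Cell Ranger 4.0.0 in the file headers, while the submitters' processing notes name Cell Ranger 6.1.1, Seurat 4 and the builds GRCm38 and mm10; no other step is given in the sources used here. The members, gene lists and comparisons were chosen with earlier results of these data known, and the gate thresholds were set after seeing the data.

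Barcodes with at least 500 UMIs, 200 genes and at most 10% mitochondrial UMIs were kept (total kept UMIs 47526289 and 62907976). A droplet joined a lineage with at least 3 marker UMIs at 25% or more of that lineage's reference level, and was mixed if a second lineage reached 20%. Doublets were otherwise not removed: Scrublet's automatic threshold called 177 and 0 droplets, and removal at the expected rate (354 and 447) is an alternative. UMIs were summed per gate and library and divided by the gate's total (CPM). Genes with at least 50 UMIs over both libraries were measured, in gates of at least 100 cells each. Ratios carry exact conditional binomial intervals, levels exact Poisson intervals and shares Clopper-Pearson intervals, at 95% and for counting error only. Per-cell shares were also computed after thinning to 2000 UMIs. Gate markers were left out of list counts in their own gate.

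Genes were named by rule: Pdcd1, Cd274 and Pdcd1lg2, and the 10 highest and lowest over the whole library and in macrophages (5 in other gates) with at least 100 UMIs, 50 CPM in the higher library, an interval wholly past 1.5-fold, a ratio past it without the top cell, and 10% or more of the level in the highest gate. List members were named beside their lists after their values were seen. Gene positions are from GENCODE vM21, and promoters from RefSeq. Scripts were tested on simulated data. Python 3.11.15, numpy 2.4.6, scipy 1.17.1, pandas 2.3.3, scanpy 1.11.5, matplotlib 3.10.9, R 4.3.3 and edgeR 4.0.16 (TMM factors only) were used.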

Additional observations from a re-analysis of the deposited data

Results flagged for a closer look

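The lists below had median log2 ratios (KO over Het) of opposite sign or size in the sham and infarcted pairs, each pair being 1 library against 1, and the difference between the pairs was not tested. In macrophages the inflammatory list was at 0.99 in sham and −0.31 after infarction, and the interferon-gamma list at −0.19 and 0.84. KO_MI is almost all Xist cells and Het_MI mostly Y-linked; in Xist macrophages of the infarcted pair the inflammatory median was −0.19 over the same 17 genes, while the per-cell medians of the summed list were 105 in Het_MI and 117 in KO_MI, so its sign after infarction depended on the measure. The interferon-gamma median in those cells was 0.86. Xist cells of Het_MI were too few to repeat this in the gates that follow (40, 29, 28 and 22). The inflammatory list was at 1.22 and −0.19 in classical monocytes and at 0.83 and −0.80 in non-classical monocytes. In T cells the thymocyte list was at −1.07 and 0.34 and the cell cycle list at −1.08 and 0.27, and in T cells without a precursor gene UMI the cell cycle list was at −0.91 and 0.21.

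The share of T cells with a precursor gene UMI had a KO over Het ratio of 0.0990 in sham and 1.76 after infarction, also not tested. The shares were 6.31% in Het_sham, 0.624% in KO_sham, 1.62% in Het_MI and 2.84% in KO_MI. Among barcodes left out for over 10% mitochondrial UMIs, macrophages made up 43.5% in KO_sham and 16.2% in Het_sham, so the barcodes that the filter removed differed in makeup. The macrophage share was 43.6% in Het_MI and 49.3% in KO_MI, so Het_sham was the library apart. T cells were 36.5% of these barcodes in Het_sham, against 3.07% in KO_sham, 4.83% in Het_MI and 3.79% in KO_MI.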

How the results depend on the processing

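No paired analysis was possible because each group is 1 library, and for the same reason no library could be left out. Of the share ratios, ratios of PD1 and its ligands, counts of genes and list counts under alternatives, 292 stayed within 1.5 times for a count, or within the counting interval for a ratio, 71 moved further and 3 reversed; where a value below differs the cause was not tested, except where fewer or more genes or cells were counted by construction.

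Share ratios, KO_sham over Het_sham, moved with cell filters. With no mitochondrial maximum, added after seeing the data, they were 1.67 for macrophages, 0.961 for classical monocytes, 1.01 (reversed) for non-classical monocytes, 1.13 (reversed) for B cells, 0.182 for T cells, 0.0541 for T cells with a precursor gene UMI and 0.594 for those without, with 773 genes lower in the latter. A maximum of 5% put B cells at 1.07 (reversed). Leaving out T precursors, also added, gave 1.33 for macrophages and 0.833 for T cells. A minimum of 3 precursor gene UMIs, also added, gave 0.685 for T cells below it. Thinning to 2000 UMIs gave 0.800 for neutrophils and 0.670 for T cells without a precursor gene UMI, and Cd274 in non-classical monocytes went to −0.056.

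Counts of genes past 1.5-fold depended on the minimum of UMIs. At 100 UMIs they were 250 higher over the whole library, 277 lower in macrophages, 118 higher and 90 lower in classical monocytes, 119 and 51 in non-classical monocytes, 46 and 47 in neutrophils, 119 and 94 in B cells, 698 higher in T cells, and 112 and 211 in T cells without a precursor gene UMI. With no minimum they were 3153 higher and 3302 lower in macrophages, 2410 and 3064 in classical monocytes, 2900 and 2627 in non-classical monocytes, 3250 and 2986 in neutrophils, 2667 and 3085 in B cells, 3584 and 5560 in T cells, and 2900 and 3745 in T cells without a precursor gene UMI. Keeping mixed droplets gave 222 higher in neutrophils, and doubled gate thresholds 172 higher in T cells without a precursor gene UMI.

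In Xist cells 183 genes were lower in classical monocytes, 34 higher and 69 lower in neutrophils, 394 and 646 in T cells, and 136 and 71 in T cells without a precursor gene UMI. In Y-linked cells 194 were higher in macrophages, 39 higher and 88 lower in neutrophils, and 126 and 267 in T cells without a precursor gene UMI. Genes that reversed in Xist cells were F5 (−0.38), Ccrl2 (0.034) and Ptgs2 (0.034) in neutrophils, and Cd14 (−1.10), Xcl1 (0.90) and Birc5 (0.45) in T cells without a precursor gene UMI; these rested on 16 and 12 neutrophils or 28 and 52 T cells, and each interval included 0.

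At 2-fold, list members past the fold were 8 for the inflammatory list in macrophages, 1 for immediate early and 0 for lower type I interferon genes there, 7 for the inflammatory list in non-classical monocytes, 7 for cell cycle in T cells without a precursor gene UMI, 1 for neutrophil activation and 0 for heat shock in B cells. In Y-linked cells immediate early and type I interferon genes in macrophages came to 2 each, the inflammatory list to 7 in classical and 6 in non-classical monocytes, and heat shock in B cells to 0. In Xist cells the inflammatory list came to 9 in classical monocytes, cell cycle to 1 in T cells without a precursor gene UMI and neutrophil activation to 1. Within each sex the minimum of UMIs was applied again, so fewer list members could be measured than in all cells. TMM and median-of-ratios scaling each left 4 lower type I interferon genes, and keeping mixed droplets 2 in the neutrophil activation list.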

Other observations

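The inducible heat shock gene Hspa1b was lower in KO_sham by at least 1.5-fold in monocytes, B cells and T cells, and not in macrophages or neutrophils. The comparison across gates was chosen after the values were seen. In T cells without a precursor gene UMI it was at 188 CPM in Het_sham and 41.9 CPM in KO_sham (log2 ratio −2.16), from 221 and 45 UMIs. In macrophages it was at 179 and 128 CPM (−0.49), short of 1.5-fold. Neutrophils went the other way: their near-identical copy Hspa1a was at 54.8 and 120 CPM (1.13), from 34 and 89 UMIs, and Hspa1b at 46.8 and 59.5 CPM (0.35), with an interval that included 0. Hspa8, a chaperone made without stress, was nearer level, at 2630 and 2477 CPM in non-classical monocytes and 2356 and 1959 CPM in T cells without a precursor gene UMI. In the infarcted pair Hspa1b had log2 ratios of −0.57 in macrophages and −0.69 in non-classical monocytes, and 0.20 in T cells without a precursor gene UMI, with an interval that included 0. In Het_sham, KO_sham, Het_MI and KO_MI it was at 158, 81.4, 49.5 and 38.4 CPM in B cells. Classical monocytes had 214, 97.8, 58.7 and 42.2 CPM, non-classical monocytes 460, 215, 174 and 108 CPM, and T cells 127, 44.3, 48.1 and 47.4 CPM. Het_sham was thus the highest of the 4 libraries in these gates.

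Some other macrophage lists, counted by sex, also had many members at least 1.5-fold higher and 0 lower. Neutrophil activation genes were higher in 12 of 14 in Xist and 7 of 14 in Y-linked macrophages, and B cell maturation genes in 8 of 10 and 8 of 12. The short effector lists gave 3 of 4 and 5 of 6 for T cells, and 3 of 3 and 5 of 5 for NK cells. The part of other-cell RNA in these was not tested. The macrophage lists that follow had fewer members past 1.5-fold than the inflammatory list. Of 13 measured stress genes 1 was higher, the cell cycle inhibitor Cdkn1a (279 and 458 CPM), and 1 lower, Ddit4 (11.1 and 6.70 CPM). Of 13 matrix remodelling genes 3 were higher and 0 lower, among them Thbs1, which encodes the matrix glycoprotein thrombospondin-1 (81.5 and 154 CPM). The list of suppressive and alternative activation genes had 6 of 13 higher and 0 lower. Its member Retnla had 1 UMI in Het_sham and 256 in KO_sham, 77.7% of them in 1 cell.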
